A study of Mus musculus with 24 samples.

Results

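The genes described here are 46 imprinted genes that lie outside the Snrpn cluster, listed by name. All 46 were found among the 35591 genes counted, 45 had at least 1 count, 40 had at least 10 counts in at least 3 libraries and 35 had at least 10 counts in every library. They belong to 18 imprinted clusters or single loci, with 14 members on chromosome 7 and 7 on chromosome 6. By their usual allelic expression, 21 are maternally expressed, 22 are paternally expressed and 3 (Grb10, Gnas and H13) use different alleles for different transcripts.

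Poly(A) RNA was sequenced from 6 male mouse embryonic stem cell (mESC) lines carried through differentiation to neuromesodermal progenitors (NMPs), the bipotent cells that give rise to spinal cord and trunk mesoderm. The 3 wild-type (wt) lines were Smchd1 fl/+ and the 3 heterozygous (het) lines were Smchd1 del/+. All came from crosses of Castaneus (Cast) Smchd1+/+ females with Smchd1 del/fl; MMTV-Cre T/+ males on the C57BL/6 background. Every line was therefore an F1 hybrid whose Cast allele was maternal, the deleted or floxed Smchd1 allele was always paternal, and the wt lines still carried the floxed allele. The Cre transgene is driven by the MMTV promoter, and the sources used here do not say which lines inherited the transgene. Each line was grown out from 1 blastocyst in medium with LIF and kinase inhibitors and then moved to serum medium with LIF, the condition sampled as day 0. From day 0 the medium was N2B27 with basic FGF, and the Wnt pathway activator CHIR99021 was added on day 2. RNA was taken from every line on days 0, 2, 2.5 and 3, which made 8 groups of 3 libraries. The 3 libraries of a group were separate lines, and the same lines returned on every day.

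Imprinted genes are transcribed mainly from the allele inherited from 1 parent. In most clusters a region methylated in 1 parental germline decides which allele is read, and the zinc finger proteins ZFP57 and ZFP445, with TRIM28, protect that methylation in the early embryo. At a smaller set of loci, called non-canonical, the maternal allele carries histone H3 lysine 27 trimethylation from the oocyte instead. SMCHD1 is a chromatin protein that acts in X chromosome inactivation and at several imprinted clusters. The values here are total counts of each gene, so they hold the sum of both alleles and say nothing of which allele was read.

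The following sequences show the ZFP57 hexamer TGCCGC, searched on both strands, at 4 members that differ in how their RNA moved. Each is the RefSeq window from 250 bases before to 50 bases after a start site on GRCm38.p6, printed 5′ to 3′ on the gene's strand with the hexamer or its reverse complement GCGGCA in capitals. Grb10 rose most steeply of the well-counted members between days 0 and 2, Mest marks a paternally expressed gene with the motif, Meg3 was almost silent, and the Peg3 window shares 263 bases with that of Usp29, which starts head to head with it.
Grb10, chr11:12037371-12037670, minus strand: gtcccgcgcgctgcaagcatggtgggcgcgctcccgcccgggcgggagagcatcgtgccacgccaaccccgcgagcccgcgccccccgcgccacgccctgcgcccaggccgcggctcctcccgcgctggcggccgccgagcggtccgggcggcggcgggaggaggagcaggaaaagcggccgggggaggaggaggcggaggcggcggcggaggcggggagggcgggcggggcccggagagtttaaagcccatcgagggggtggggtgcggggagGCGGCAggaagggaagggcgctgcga
Mest, chr6:30737800-30738099, plus strand: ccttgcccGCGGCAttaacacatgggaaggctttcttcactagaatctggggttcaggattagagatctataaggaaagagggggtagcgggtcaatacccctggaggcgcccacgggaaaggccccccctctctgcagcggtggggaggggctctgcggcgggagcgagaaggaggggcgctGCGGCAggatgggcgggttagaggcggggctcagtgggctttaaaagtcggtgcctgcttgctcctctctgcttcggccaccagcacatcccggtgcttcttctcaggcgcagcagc
Meg3, chr12:109540746-109541045, plus strand: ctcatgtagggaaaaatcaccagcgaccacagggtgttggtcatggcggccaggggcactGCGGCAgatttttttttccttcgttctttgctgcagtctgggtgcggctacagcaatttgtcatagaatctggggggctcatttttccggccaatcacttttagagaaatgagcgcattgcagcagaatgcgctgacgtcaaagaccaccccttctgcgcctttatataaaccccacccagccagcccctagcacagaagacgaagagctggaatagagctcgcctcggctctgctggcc
Peg3, chr7:6730370-6730669, minus strand: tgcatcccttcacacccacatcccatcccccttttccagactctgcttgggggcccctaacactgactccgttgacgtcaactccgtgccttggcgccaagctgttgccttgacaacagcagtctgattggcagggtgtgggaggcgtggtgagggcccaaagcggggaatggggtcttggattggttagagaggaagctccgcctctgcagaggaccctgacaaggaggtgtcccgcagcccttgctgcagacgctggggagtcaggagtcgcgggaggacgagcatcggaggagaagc
The Grb10 and Meg3 windows each held 1 match, the Mest window held 2 and the Peg3 window held 0. CG pairs numbered 45 in the Grb10 window, 17 in that of Mest and 13 in each of the other two, against a median of 7 over all 32851 windows and 16.5 over the members' windows. Of the 46 members, 36 had a window in the RefSeq table, with 56 windows in all. The hexamer was present in 13 of these 56 windows (23.2%), belonging to 12 members, and in 3813 of all 32851 windows (11.6%). The hexamer itself contains a CG pair, and the part of the higher CG count in the members' share was not tested. Of the Mest windows, those starting at 30737800 and 30737803 overlap and were both counted. A match is a run of letters and not a measured binding site. H19 also carries a microRNA in its exon, and its mature arms are printed with the seed, bases 2 to 8, in capitals.
miR-675-5p, chr7:142577112-142577133, minus strand: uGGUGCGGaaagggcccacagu
miR-675-3p, chr7:142577078-142577099, minus strand: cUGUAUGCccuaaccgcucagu
The poly(A) libraries count the H19 transcript and do not measure these mature forms.

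The libraries held 7.10 to 20.8 M counts (mega, median 17.9 M), with the lowest total in wt line 2 on day 2.5. Levels are given as counts per M counts (CPM) with edgeR's TMM factors applied, and 3 counts, the floor used for a gene listed at 0, correspond to 0.144 to 0.422 CPM before those factors. Smchd1, the targeted gene, was lower in every het library than in every wt library of the same day, for example 107, 106 and 104 CPM against 167, 207 and 207 CPM on day 3. Its log2 fold change, het against wt, ran from -0.88 on day 3 to -0.60 on day 2.5 and was -0.76 (standard error (SE) 0.07, adjusted p = 0.00556, edgeR) over the summed days. The day labels were checked against marker genes. The summed level of 8 pluripotency genes fell from 2385 to 2577 CPM in wt lines on day 0 to between 301 and 421.4 CPM on day 3, and that of 8 NMP genes was higher on day 2.5 (684.6 to 1264 CPM) than on day 0 (217.6 to 286.5 CPM). Genes of extraembryonic endoderm were also present: the summed level of 19 such genes, none at 0, was 2763 to 4303 CPM in the wt lines and 1649 to 2270 CPM in the het lines on day 0, and 8154 to 16030 CPM against 5023 to 6854 CPM on day 2. In bulk RNA, fewer cells of a type and less RNA per cell cannot be told apart.

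The members were for the most part well expressed. Together they held 0.486% to 0.782% of the counts of a library. The median level of the 40 members that passed a filter on low counts was 11.7 CPM per kb of exon, against 3.59 CPM per kb over all 17539 genes that passed it. Peg10, a retrotransposon-derived gene needed for placental development, was the highest member on this per-length scale with a mean of 267 CPM per kb over the 24 libraries, and it alone took 18.6% to 34.4% of all member counts. H19, a maternally expressed non-coding RNA, followed at 246 CPM per kb. The next members were much lower on that scale: the amino acid transporter gene Slc38a4 had a mean of 66.1 CPM per kb and the histone chaperone gene Nap1l4 had 65.8, the kinase-signalling adaptor gene Gab1 48.4, the zinc finger gene Peg3 44.8 and Impact, a regulator of translation, 42.6. At the low end, Zim1 had a mean of 0.291 CPM per kb and the 93 kb non-coding RNA Kcnq1ot1 had 0.0903. The plot of levels per kb shows this order for the 40 members.

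**Figure D1:**
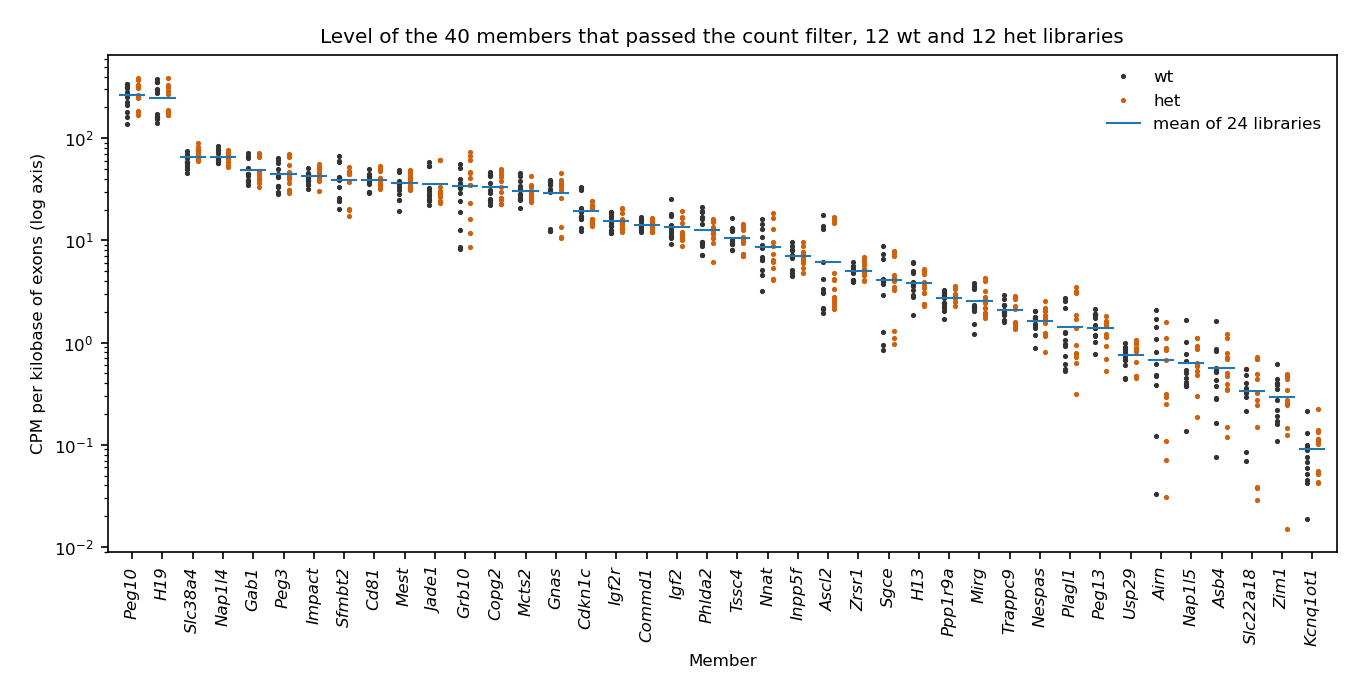
Level of each member that passed the filter on low counts, in CPM per kb of exon on a log axis; each point is 1 library, black for wt and orange for het, and a blue bar marks the mean of 24 libraries, which sets the order. Peg10 and H19 stand above the rest at 267 and 246 CPM per kb, and Zim1 and Kcnq1ot1 are lowest at 0.291 and 0.0903; libraries with 0 counts are not drawn.

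The Dlk1-Meg3 cluster on chromosome 12 was almost silent apart from Mirg at its distal end. Dlk1, a paternally expressed Notch pathway ligand, had 0 counts among 420.8 M, which allows a level of up to 0.00713 CPM over the 24 libraries together. The maternally expressed non-coding RNA Meg3 had 45 counts in 10 libraries, at most 11 in any one of them, and Rian, from the same strand, had 30 counts in 13 libraries. Mirg, a further non-coding RNA of that strand, was counted in every library, with 109 to 563 counts and 8.86 to 31.4 CPM. On day 0 Mirg stood at 27.8, 25.5 and 24.3 CPM in the wt lines and 31.4, 23.3 and 29.0 CPM in the het lines, and on day 3 at 8.86, 16.97 and 10.97 CPM and at 14.1, 13.6 and 14.1 CPM. Every day 3 library was thus below every day 0 library. Kcnk9, Slc22a2 and Slc22a3, which are imprinted mainly in brain or placenta, had 3, 1 and 60 counts over all libraries. These 6 members (Dlk1, Meg3, Rian, Kcnk9, Slc22a2 and Slc22a3) passed the filter in no comparison and were not tested.

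To see how the members moved during differentiation, each day was compared with the day before it within a genotype, with edgeR's quasi-likelihood test and an adjusted p under 0.05 over all genes as the call. From day 0 to day 2, 23 of 40 tested members were called in the wt lines (11 up, 12 down), where 44.3% of all genes tested were called, and 28 of 39 in the het lines (12 up, 16 down), where 56.1% were. From day 2 to day 2.5 the counts were 11 of 40 in wt (5 up, 6 down, against 29.1% of all genes) and 20 of 39 in het (11 up, 9 down, against 44.7%). From day 2.5 to day 3 they were 13 of 39 in wt (11 up, 2 down, against 19.1%) and 15 of 40 in het (10 up, 5 down, against 29.8%). The median log2 fold change of the members was -0.10, -0.0034 and 0.18 over the 3 steps in wt and -0.18, 0.05 and 0.10 in het, and the medians over all genes lay between -0.02 and 0.02. Over the alternative fits the members' median from day 2 to 2.5 changed sign, from -0.08 to 0.06 in wt and from -0.02 to 0.13 in het. Members called in both genotypes moved in the same direction in every case: 11 up and 11 down from day 0 to 2, 5 up and 5 down from day 2 to 2.5, and 8 up and 2 down from day 2.5 to 3. A member called in 1 genotype only is not shown to differ between them, since that difference was tested separately.

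**Figure D2:**
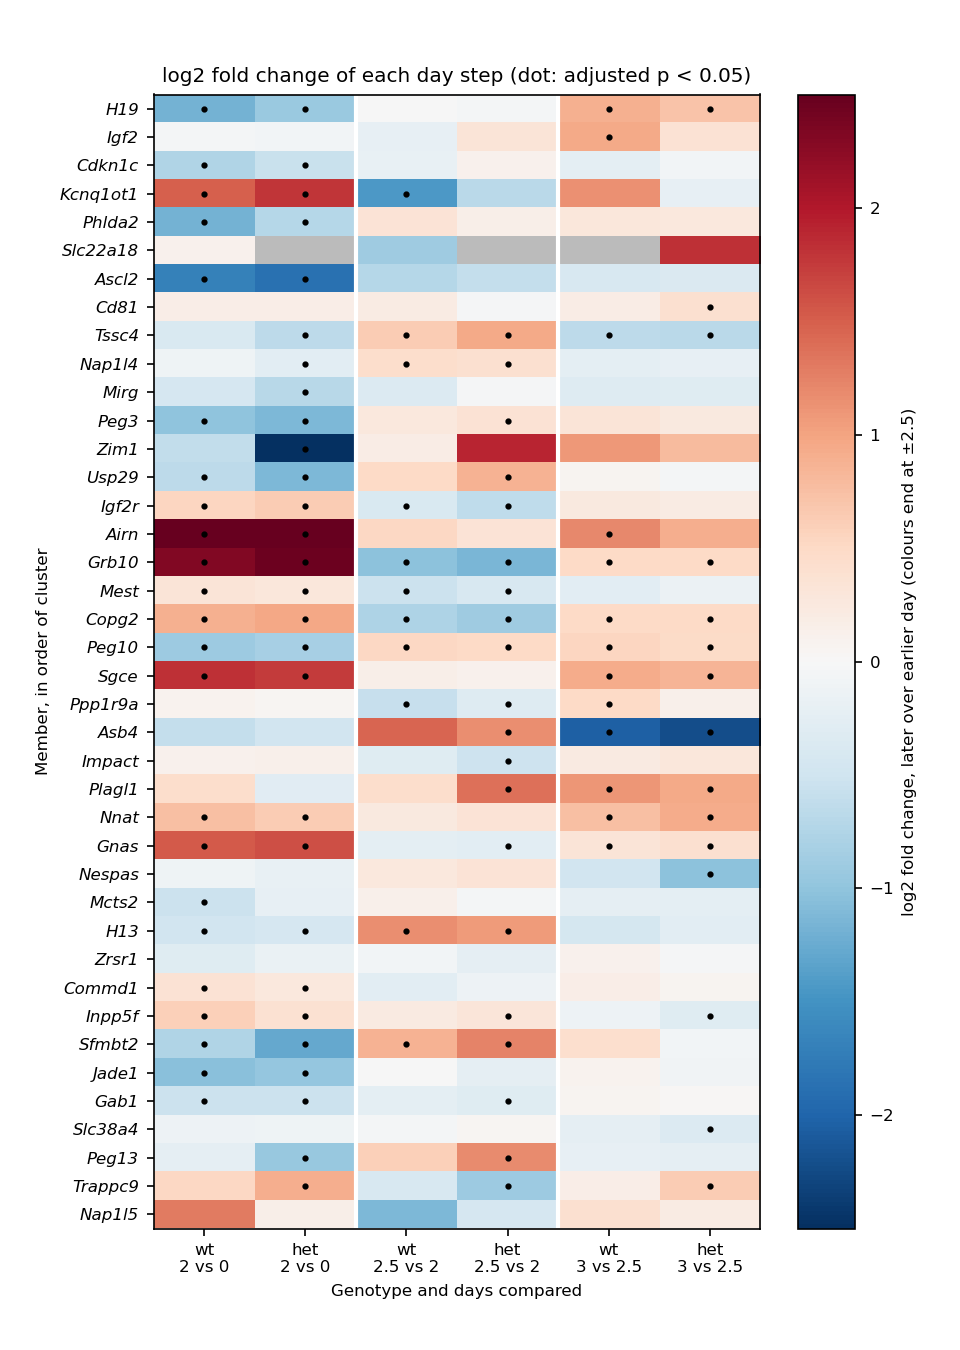
Log2 fold change of each tested member in each step between consecutive days, wt and het side by side, with members in rows by cluster; red is higher and blue lower on the later day, colours end at 2.5 either way, grey is not tested and a dot marks an adjusted p under 0.05. The first step holds the most dots, 23 in wt and 28 in het, and no member has dots of opposite direction in the 2 genotypes at the same step.

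In the H19-Igf2 cluster, H19 fell and then rose part of the way back. It stood at 932, 865 and 876 CPM in the wt lines on day 0, at 391, 382 and 401 CPM on day 2, at 344, 399.8 and 429 CPM on day 2.5 and at 688, 732 and 744 CPM on day 3. The het lines followed the same course, with 817, 951 and 780.2 CPM on day 0, 417, 453 and 462 CPM on day 2, 446, 443 and 413 CPM on day 2.5 and 664, 721 and 779 CPM on day 3. The 6 libraries of day 2 did not overlap those of day 0 or day 3, and every day 3 library was below every day 0 library. H19 fell by 1.18 on the log2 scale in the wt lines (SE 0.09, adjusted p = 1.99e-07) and by 0.93 in the het lines (SE 0.07, adjusted p = 1.82e-08) from day 0 to 2, and rose by 0.89 and 0.71 from day 2.5 to 3. Igf2, the fetal growth factor gene of the opposite allele, was not called at the first step and changed later: the wt lines had 52.7, 62.7 and 67.0 CPM on day 2.5 and 105, 145 and 98.4 CPM on day 3, a rise of 0.94 (SE 0.17, adjusted p = 0.00445). The het lines had 94.97, 65.6 and 62.2 CPM and then 110.3, 85.6 and 96.8 CPM, a log2 difference of 0.37 that was not called (adjusted p = 0.0943). With the line as a block it was called (0.39, adjusted p = 0.0143). Igf2 shares exon bases with a neighbouring annotated gene, so its counts may include reads of that gene.

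The Kcnq1 cluster, whose paternal non-coding RNA Kcnq1ot1 silences the maternally expressed growth inhibitors around it, moved in opposite directions between days 0 and 2. Kcnq1ot1 rose from 4.19, 4.83 and 3.90 CPM to 19.8, 9.32 and 7.06 CPM in wt and from 3.96, 4.89 and 4.03 CPM to 10.6, 12.99 and 20.7 CPM in het (log2 fold change 1.49, SE 0.36, adjusted p = 0.00386 and 1.79, SE 0.25, adjusted p = 2.27e-05). Cdkn1c, an inhibitor of cyclin-dependent kinases, fell from 66.2, 67.3 and 64.2 CPM to 42.3, 40.8 and 34.2 CPM in wt and from 49.9, 43.8 and 49.8 CPM to 32.9, 32.5 and 31.4 CPM in het. Ascl2, a transcription factor gene of trophoblast and intestinal stem cells, fell most: from 28.6, 20.9 and 22.2 CPM to 9.87, 5.43 and 6.76 CPM in wt (log2 fold change -1.69, SE 0.24, adjusted p = 7.33e-05) and from 23.9, 25.7 and 27.8 CPM to 6.84, 6.62 and 7.76 CPM in het (-1.86, SE 0.16, adjusted p = 1.01e-07). Its level went on down to 3.13 to 3.99 CPM on day 3, a ratio of group means of 0.141 in wt and 0.145 in het between day 3 and day 0. Phlda2, a restrainer of placental growth, fell as well, from 21.6, 21.3 and 24.04 CPM to 10.9, 8.04 and 10.3 CPM in wt (-1.19) and from 18.2, 17.04 and 17.6 CPM to 11.9, 12.9 and 6.92 CPM in het (-0.72). On the far side of the cluster, Tssc4 went the other way at the next step, from 17.1, 18.3 and 14.9 CPM on day 2 to 30.3, 23.3 and 24.5 CPM on day 2.5 in wt, and fell again to 14.8, 17.03 and 17.4 CPM on day 3, with both turns called in both genotypes. Nap1l4 rose by 0.44 in wt and 0.39 in het from day 2 to 2.5, from 160 to 189 CPM up to 223 to 257 CPM over both genotypes. On day 2.5 Kcnq1ot1 was at 1.76, 5.52 and 6.30 CPM in wt, a fall of 1.44 (SE 0.46, adjusted p = 0.0313), and stood at 10.7, 12.4 and 4.80 CPM in het, where the step was not called. Kcnq1ot1 runs antisense through Kcnq1, and Cdkn1c and Tssc4 are among 23 members that share exon bases with other annotated genes. The labels name stranded and non-stranded kits without saying which library used which, so reads of overlapping or antisense partners cannot be told apart.

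In the Peg3 cluster the genes that share a bidirectional start fell together from day 0 to 2. Peg3 went from 764, 812 and 858 CPM to 444, 393 and 375 CPM in wt and from 869, 894 and 934 CPM to 389, 416 and 418 CPM in het, falling by 1.00 (SE 0.10, adjusted p = 2.05e-06) and 1.13 (SE 0.05, adjusted p = 1.31e-10) on the log2 scale. Usp29, which starts from the window it shares with Peg3, fell by 0.66 in wt (adjusted p = 0.0353) and by 1.13 in the het lines (SE 0.16, adjusted p = 2.52e-05), from 16.3, 15.6 and 13.6 CPM to 12.7, 8.09 and 7.90 CPM and from 17.5, 19.1 and 18.7 CPM to 8.22, 8.46 and 8.42 CPM. Both were up again on day 2.5 in the het lines, where Peg3 rose by 0.36 and Usp29 by 0.87. The maternally expressed Zim1 was low throughout: it had 3.25, 1.53 and 2.82 CPM in wt and 3.79, 3.56 and 3.83 CPM in het on day 0, and 1.28, 1.38 and 2.24 CPM and 0.12, 1.19 and 0 CPM on day 2. Its fall was called in het alone, where it rests on very few counts.

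Igf2r, the maternally expressed receptor that clears IGF2, rose with its antisense RNA Airn. Igf2r went from 109, 119 and 129 CPM on day 0 to 158, 178 and 177 CPM on day 2 in wt and from 119, 122.8 and 118 CPM to 195, 173 and 188 CPM in het, a rise of 0.53 and 0.64 on the log2 scale. It fell by 0.39 and 0.63 at the next step. Airn, the paternal RNA needed to silence Igf2r on that allele, was near the counting floor on day 0, at 0.438, 0.118 and 0 CPM in wt and 0.112, 0.254 and 0.390 CPM in het. It had 2.22, 1.70 and 1.74 CPM in wt on day 2, 1.37, 2.90 and 3.89 CPM on day 2.5 and 5.14, 6.14 and 7.43 CPM on day 3, and in het it reached 3.02, 3.96 and 5.66 CPM on day 3. All 6 day 3 libraries were above all 6 day 0 libraries. The called rise of the first step (3.28, SE 0.96, adjusted p = 0.0124 in wt and 2.78, SE 0.78, adjusted p = 0.00654 in het) starts from a few counts, so its size is loose. Airn starts within Igf2r on the opposite strand, and antisense reads cannot be told apart here.

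Grb10, an adaptor gene that restrains insulin and growth factor signalling, made the steepest rise of the well-counted members. It went from 75.6, 114 and 78.5 CPM on day 0 to 461, 505 and 366 CPM on day 2 in wt and from 149, 78.8 and 108 CPM to 662, 562 and 603 CPM in het. The log2 fold change was 2.32 (SE 0.16, adjusted p = 9.75e-08) in wt and 2.45 (SE 0.15, adjusted p = 3.09e-09) in het, and the days did not overlap. It then fell by 1.02 and 1.13 to 264, 222 and 171 CPM and to 319.8, 210.4 and 315 CPM on day 2.5, and rose again by 0.50 in each genotype to 332, 296 and 298 CPM and to 416, 427 and 373 CPM on day 3. The Grb10 course was therefore a peak on day 2 with a partial return, as the plot of day courses shows. The summed level of the endoderm markers was also above its day 0 range on day 2 in both genotypes, by the values given above, and its part in the Grb10 course was not tested.

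**Figure D3:**
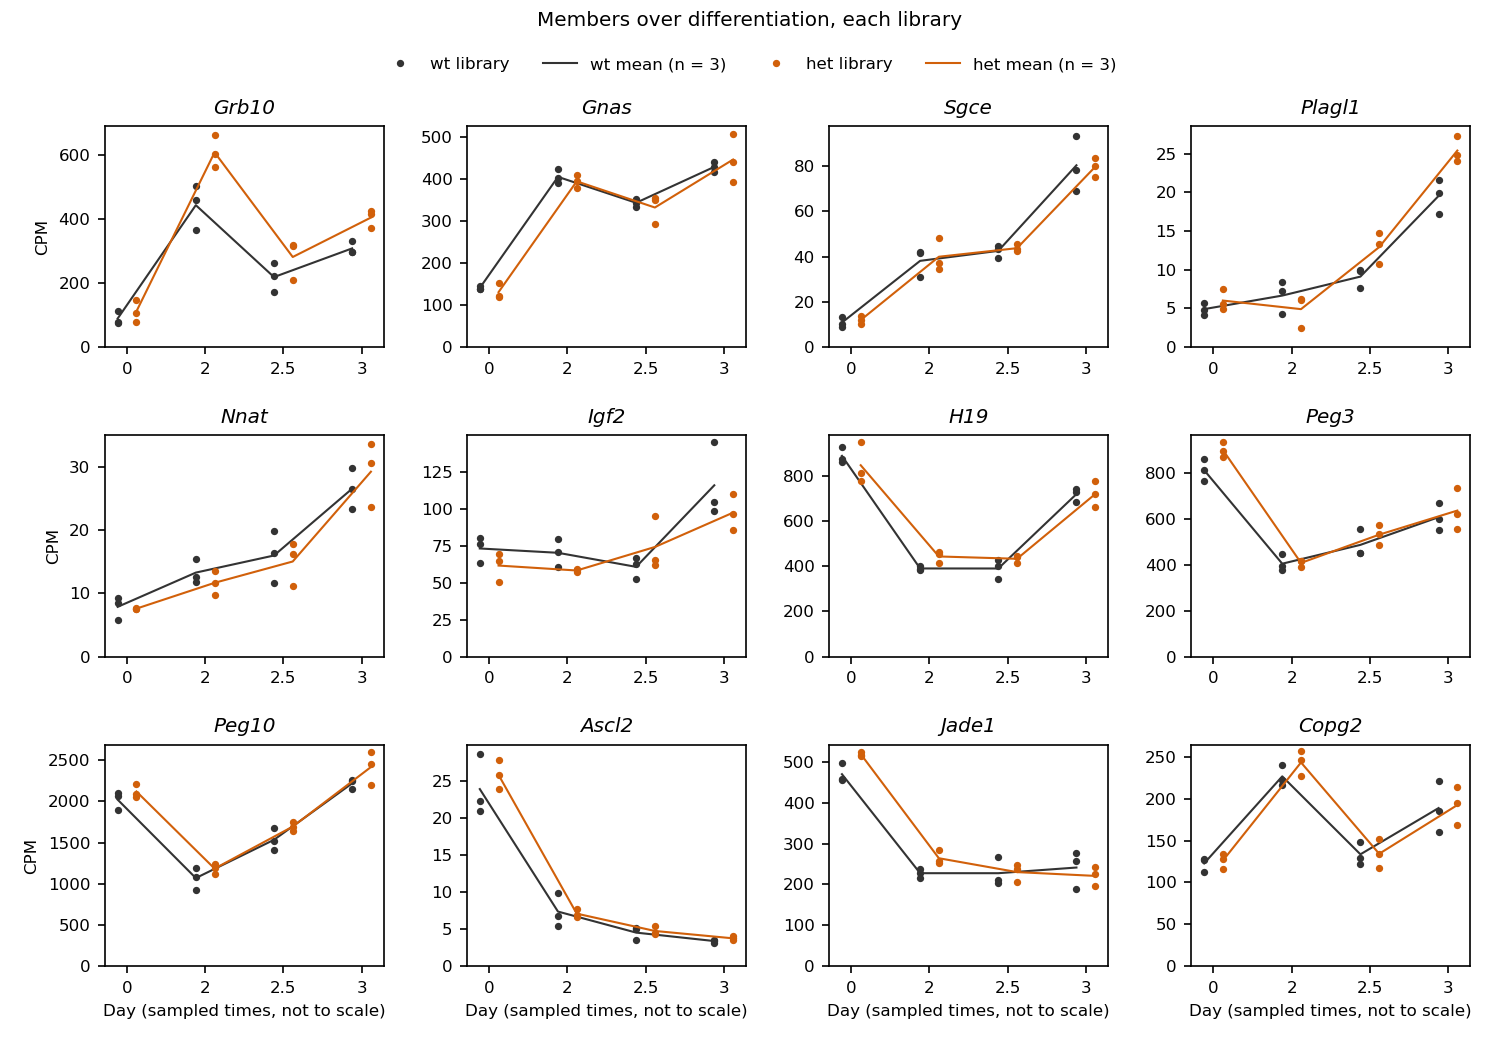
Level in CPM by day of differentiation (0, 2, 2.5 and 3) for 12 members, 1 panel each; each point is 1 library and each line joins the means of 3 libraries, black for wt and orange for het, with days evenly spaced and not to scale. Grb10 peaks on day 2, H19 and Peg10 dip on days 2 and 2.5 and are higher again on day 3, H19 still below its day 0 libraries, Ascl2 falls, and Sgce rises at the first and last steps.

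Mest, a paternally expressed hydrolase gene of mesoderm, and Copg2, which overlaps it tail to tail, rose and fell together. Copg2 went from 112, 127 and 128 CPM to 241, 223 and 217 CPM between days 0 and 2 in wt and from 128, 135 and 116 CPM to 246, 257 and 227 CPM in het (0.89, SE 0.10, adjusted p = 9.18e-06 and 0.96, SE 0.07, adjusted p = 2.88e-08). Mest rose less, by 0.32 and 0.28, from 140.4, 144 and 132 CPM to 184, 192 and 142 CPM in wt and from 154, 152 and 156 CPM to 187, 175 and 194 CPM in het. Both fell at the next step, Copg2 by 0.77 and 0.88 and Mest by 0.53 and 0.41. From day 2.5 to 3 only Copg2 was called, with a rise of 0.50 in each genotype. The 2 genes share exon bases at their ends, and those reads may be split between them.

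The Peg10 cluster held the highest and some of the most mobile members. Peg10 dipped from 1896, 2060.1 and 2107 CPM on day 0 to 1195, 1084 and 927 CPM on day 2 in wt and from 2049.6, 2216 and 2096 CPM to 1118, 1195 and 1238 CPM in het, falling by 0.91 (SE 0.10, adjusted p = 6.47e-06) and 0.83 (SE 0.05, adjusted p = 1.31e-09). It rose at both later steps to 2263, 2147 and 2249 CPM and to 2196, 2602 and 2454 CPM on day 3. Sgce, the sarcoglycan gene that starts next to Peg10 and points away from it, did not dip: it had 9.07, 13.3 and 10.1 CPM on day 0, 41.4, 31.0 and 42.0 CPM on day 2, 39.3, 43.5 and 44.9 CPM on day 2.5 and 93.6, 69.3 and 78.4 CPM on day 3 in wt. In het it had 13.8, 10.2 and 11.8 CPM on day 0 and 75.3, 83.8 and 80.2 CPM on day 3. Sgce had the largest ratio of day 3 to day 0 among the 35 members with at least 10 counts in every library, 7.42 in wt and 6.68 in het by group means, with no overlap between those days. The neighbours differed at the first step, where Peg10 fell and Sgce rose by 1.82 (SE 0.20, adjusted p = 5.52e-06) and 1.75 (SE 0.16, adjusted p = 2.13e-07). Ppp1r9a, a maternally expressed gene further along, fell by 0.57 in wt from day 2 to 2.5, from 48.0, 43.4 and 35.1 CPM to 31.5, 29.3 and 24.8 CPM. Asb4, another maternally expressed gene of this region, was low and fell from day 2.5 to 3, from 6.38, 2.21 and 3.24 CPM to 1.47, 0.301 and 1.10 CPM in wt and from 4.32, 2.71 and 4.80 CPM to 1.53, 0.471 and 0.591 CPM in het.

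Other single loci rose over the course. Gnas, which encodes the stimulatory G protein alpha subunit among other products, went from 138, 146 and 138 CPM on day 0 to 402, 389.8 and 423 CPM on day 2 in wt and from 151, 119 and 122 CPM to 395, 408 and 379 CPM in het (1.53, SE 0.09, adjusted p = 3.85e-08 and 1.60, SE 0.08, adjusted p = 3.72e-10). Its antisense RNA Nespas stayed between 2.56 and 8.01 CPM. Its only called step was a fall of 1.02 in het from day 2.5 to 3, where the wt log2 fold change was -0.47 and the difference between genotypes was not called. Plagl1, a zinc finger gene that acts in the control of growth and of other imprinted genes, stood at 5.75, 4.83 and 4.11 CPM on day 0 and 17.2, 19.9 and 21.6 CPM on day 3 in wt, and at 4.97, 5.59 and 7.47 CPM and 24.05, 27.3 and 24.8 CPM in het. From day 2.5 to 3 it rose by 1.11 in the wt lines (SE 0.19, adjusted p = 0.00442) and 0.95 in the het lines (SE 0.14, adjusted p = 0.000576). In the het lines the step before was larger, a rise of 1.38 from day 2 to 2.5 (SE 0.30, adjusted p = 0.0017). Nnat, a gene of the nervous system that encodes a membrane proteolipid, rose at the first and the last step in both genotypes and reached 29.8, 26.5 and 23.4 CPM in wt and 33.6, 23.6 and 30.6 CPM in het on day 3, from 5.85 to 9.32 CPM on day 0. H13, which encodes a signal peptide peptidase, fell first and then rose by 1.17 in the wt lines (SE 0.19, adjusted p = 0.000648) and 1.06 in the het lines (SE 0.11, adjusted p = 6.07e-06) from day 2 to 2.5, from 16.6 to 26.0 CPM up to 41.7 to 54.3 CPM. Impact kept between 157 and 285 CPM in all libraries, and its only called step was a fall of 0.51 in het from day 2 to 2.5. With the line as a block its rise of 0.28 in het from day 2.5 to 3 was called too (adjusted p = 0.0272). Among the remaining members, Commd1 and Inpp5f rose from day 0 to 2 in both genotypes and Mcts2 was called down in wt alone. From day 2.5 to 3 Inpp5f fell by 0.31 in het, from 64.2, 73.1 and 79.8 CPM to 54.0, 60.8 and 63.1 CPM. Zrsr1 (17.5 to 30.9 CPM) was called in no step. Commd1 and Zrsr1 overlap, and their shared reads cannot be told apart.

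The paternally expressed genes with non-canonical imprinting fell together at the first step apart from Slc38a4. Jade1, a subunit gene of a histone acetyltransferase complex, went from 459, 456 and 497 CPM to 229, 239 and 215 CPM in wt and from 516, 526 and 518 CPM to 258, 252 and 284 CPM in het, falling by 1.04 (SE 0.09, adjusted p = 1.07e-06) and 0.97 (SE 0.06, adjusted p = 1.59e-09). Gab1 fell by 0.54 in each, from 325 to 365 CPM down to 216 to 258 CPM. Sfmbt2, a Polycomb group gene, fell from 304, 379 and 376 CPM to 184, 221 and 223 CPM in wt (-0.75, SE 0.11, adjusted p = 0.000125) and from 429, 407 and 441 CPM to 159, 185 and 182 CPM in het (-1.27, SE 0.07, adjusted p = 4.47e-10). It rose in both genotypes by day 2.5, to 239, 375 and 529.7 CPM in wt, spread to both sides of the day 0 range, and to 426, 412 and 421 CPM in het. Jade1 and Gab1 stayed below their day 0 libraries on days 2.5 and 3. Slc38a4 was steady by comparison, with 194 to 385 CPM over all libraries and a single called step, a fall of 0.35 in het from day 2.5 to 3. At the Peg13 locus on chromosome 15, Trappc9, a trafficking complex gene, and the non-coding Peg13 in its intron went opposite ways in the het lines: from day 2 to 2.5 Peg13 rose by 1.19, from 3.24, 2.50 and 4.37 CPM to 7.52, 8.50 and 7.27 CPM. Trappc9 fell by 0.91, from 22.1, 22.9 and 21.3 CPM to 12.5, 10.8 and 12.5 CPM. Peg13 lies inside Trappc9 on the same strand, so intronic reads of the host could reach its count.

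The steps are paired by line. The line as a block moved the calls most in wt from day 2.5 to 3. There it gave 19 members (15 up, 4 down) in place of 13 (11 up, 2 down) and 4687 genes in place of 2923. The members gained there were Sfmbt2 (0.45, adjusted p = 0.00603), Kcnq1ot1, Peg3 and Zim1, which rose, and H13 and Nap1l4, which fell. With the block, the het rise of Asb4 and the het fall of Ppp1r9a from day 2 to 2.5 were no longer called, at adjusted p = 0.0537 and 0.0637. The wt steps rested on 3 lines, with the shallowest library among them. Leaving out wt line 2 left 0 of the wt members called from day 2.5 to 3, and leaving out wt line 3 left 4, with 29 and 988 genes called in all. Without wt line 2, 14 members and 3363 of 15560 genes had an unadjusted p under 0.05 in edgeR. From day 2 to 2.5, 3 to 8 wt members were called with 1 line left out, against 11 with all lines, and the lowest number came without wt line 2. Over all genes those fits called 2249 to 3875, against 4519 with all lines. Every called step kept its sign in these fits.

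The heterozygous deletion was compared with the wt state on each day, which asks whether losing 1 paternal copy of Smchd1 shifts the output of these genes. By the edgeR test 0 members were called on day 0 (of 39 tested, 0% of all genes called), 0 on day 2 (of 40, 0.551%), 0 on day 2.5 (of 39, 0%) and 0 on day 3 (of 40, 0.00638%). When the counts of a line were summed over its days, 0 of 40 were called as well, against 0.00544% of all genes. At an unadjusted p under 0.05 there were 5, 7, 5 and 4 members by day and 4 over the summed days. All genes under that threshold were 1649 of 15108, 1576 of 15414, 822 of 15588 and 1432 of 15686 by day. Over the summed days they were 1663 of 18371. DESeq2 called 1, 1, 0 and 1 members by day and 2 over the summed days, among 82, 233, 3, 116 and 145 genes. The median log2 fold change of the members was 0.07, 0.02, 0.04 and -0.01 by day and 0.03 over the summed days. Over the alternative fits it changed sign on day 2 (-0.03 to 0.08) and day 3 (-0.03 to 0.03). The median SE of a member was 0.13, 0.15, 0.16 and 0.14 by day and 0.09 over the summed days. Differences several times larger could go uncalled with 3 lines per genotype. The deleted gene Smchd1 itself, at -0.61 (SE 0.08) on day 0 and -0.60 (SE 0.11) on day 2.5, was not called on those days (adjusted p = 0.1004 and 0.907, edgeR). The largest single differences by day were those of Nap1l5 (0.74), Zim1 (-1.88), Kcnq1ot1 (1.07) and Slc22a18 (0.74), all members with low counts. Nap1l5 had 4 to 32 counts per library on day 0 and Zim1 had 0 to 45 on day 2. Kcnq1ot1 had 32 to 237 on day 2.5 and Slc22a18 had 6 to 24 on day 3.

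Slc38a4 and Grb10 were higher in the het lines on several days, with differences that edgeR did not call. Slc38a4 was higher in all 3 het lines than in all 3 wt lines on days 0, 2 and 3: 335, 339 and 346 CPM against 251, 318 and 284 CPM on day 0, 324, 294 and 322 CPM against 274, 249 and 251 CPM on day 2, and 254, 269 and 269 CPM against 229.5, 212 and 194 CPM on day 3. On day 2.5 the groups overlapped, with 311, 296 and 385 CPM against 298, 239 and 212 CPM. The log2 fold change was 0.30 (SE 0.06, unadjusted p = 0.000485, adjusted p = 0.318, edgeR) over the summed days, where the lines stood at 303, 299 and 329 CPM in het and 263, 258 and 235 CPM in wt. Grb10 was higher in het without overlap on days 2 and 3 (662, 562 and 603 CPM against 461, 505 and 366 CPM on day 2), with a log2 fold change of 0.45 (SE 0.11, unadjusted p = 0.000627, adjusted p = 0.0781, edgeR) on day 2 and 0.38 (SE 0.08, adjusted p = 0.231, edgeR) on day 3. Its summed difference was 0.32 (SE 0.08, adjusted p = 0.365). Without wt line 1 the summed edgeR fit called both genes, Grb10 at adjusted p = 0.0462 and Slc38a4 at 0.0173. That fit called 404 of 18797 genes in all, against 1 of 18371 with all lines. Without wt line 2 the day 2 fit called Grb10 at adjusted p = 0.018, among 137 of 15819 genes, against 85 of 15414 with all lines. Over 10 alternative fits the adjusted p of the summed difference ran from 0.0101 to 1.00 for Slc38a4 and from 0.0182 to 1.00 for Grb10, with 3 calls for each.

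Cdkn1c was lower in the het lines at the start of the course and not at its end. On day 0 it stood at 49.9, 43.8 and 49.8 CPM in het and 66.2, 67.3 and 64.2 CPM in wt, a log2 fold change of -0.48 (SE 0.10, unadjusted p = 0.000288, adjusted p = 0.334, edgeR). On day 3 it stood at 45.4, 28.3 and 29.5 CPM in het and 25.1, 35.0 and 27.1 CPM in wt, and the groups overlapped. Plagl1 was higher in het on days 2.5 and 3 without overlap, by 0.52 and 0.37 on the log2 scale, and by 0.35 (SE 0.11, adjusted p = 0.429) over the summed days. On day 2 its log2 fold change was -0.45, with overlapping groups. Peg10 was higher by 0.14 over the summed days (SE 0.05, adjusted p = 0.45), with 1757, 1980.5 and 1896 CPM against 1704, 1715 and 1688.5 CPM. By edgeR none of these 3 differences was called. The Cdkn1c difference of day 0 was called by DESeq2 (adjusted p = 0.00853) and by edgeR without the filter on low counts (adjusted p = 0.00425). Those 2 fits called 82 and 369 genes in all, where the main fit called 0.

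Counted by separation alone, the het and wt libraries did not overlap for 10 of 39 members on day 0, 9 of 40 on day 2, 4 of 39 on day 2.5 and 4 of 40 on day 3, where 16.7%, 16%, 11.4% and 13.9% of all genes tested did not overlap. Over the summed days it was 5 of 40, against 13.8%. On day 0 the members without overlap were higher in het for Jade1, Mest, Peg3, Sfmbt2, Slc38a4, Usp29 and Zim1 and lower for Cdkn1c, Phlda2 and Trappc9, and on day 2 they were higher for Grb10, H19, Jade1 and Slc38a4 and lower for Cdkn1c, Igf2, Peg13, Tssc4 and Zim1. Of 38 members tested on every day, 7 had a higher fitted level in het on all 4 days (Peg3, Grb10, Mest, Copg2, Peg10, Impact and Slc38a4), 3 had a lower one (Tssc4, H13 and Peg13) and 28 went both ways. The plot of summed differences shows the members around 0 and Smchd1 at -0.76. The summed endoderm marker level was lower in every het line than in every wt line on days 0 and 2, and 12 of 16 tested endoderm markers were called lower in het on day 2. The genotypes overlapped on day 2.5 (5616 to 14160 CPM in wt, 5840 to 8437 CPM in het) and on day 3 (5652 to 11050 and 4310 to 7000 CPM). Between lines of one genotype 13 of 17 tested endoderm markers were called, against 2.23% of all genes. The part of these marker differences in the members' differences was not tested. Markers of trophoblast were low by comparison, with a summed level of 108.3 to 118.7 CPM in wt and 89.98 to 109.1 CPM in het on day 0. On day 2 that level was 70.14 to 87.33 CPM in wt and 58.85 to 68.65 CPM in het, lower in every het line, and its part in the members' differences was not tested either.

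**Figure D4:**
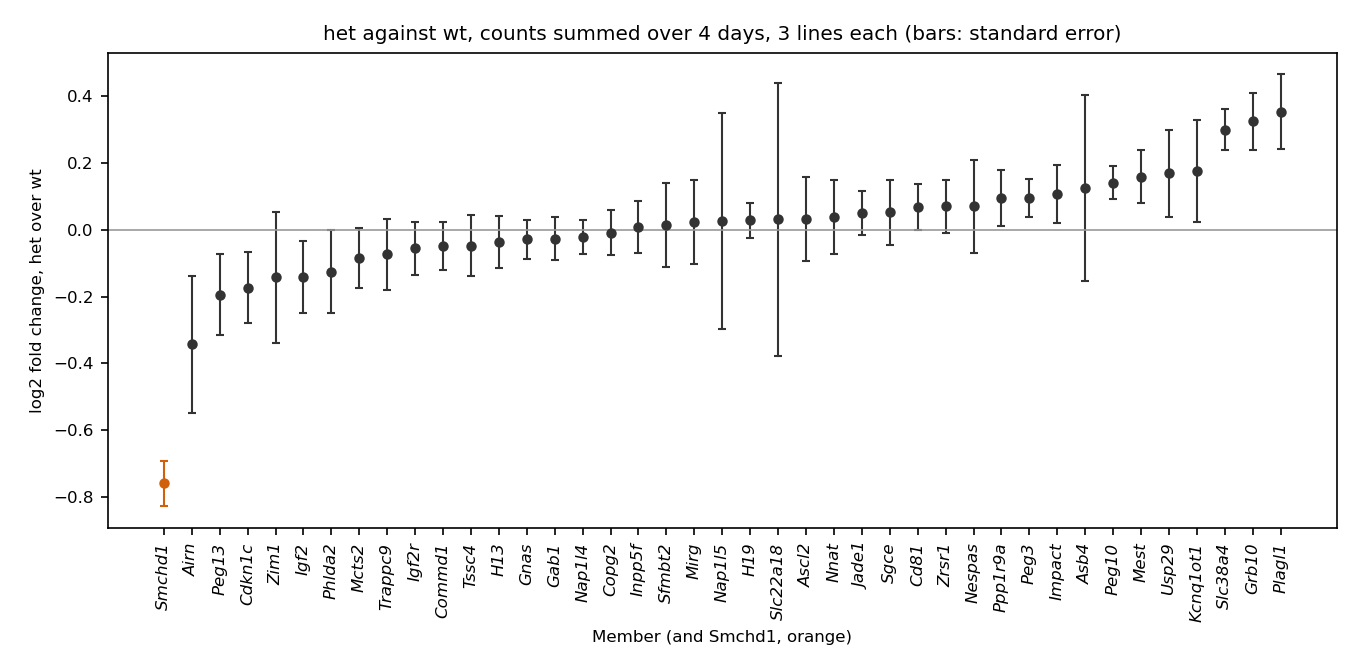
Log2 fold change, het against wt, of counts summed over the 4 days for each tested member and for Smchd1; points are edgeR estimates over 3 lines per genotype and bars are 1 SE. The members lie within 0.354 of 0, with Plagl1, Grb10 and Slc38a4 at the high end, Airn at the low end and none called by edgeR, and Smchd1 (orange) is at -0.76.

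Whether a step differed between the genotypes was tested as an interaction over the 12 libraries of each pair of days. By edgeR 0 of 40 members were called at each of the 3 steps, where 0% of all genes were called, and 3 members passed an unadjusted p of 0.05 each time. Over all genes 1034 of 16387, 850 of 16569 and 635 of 16486 passed that unadjusted threshold. DESeq2 called 0 members at each step, and 10, 0 and 0 genes in all. The lowest p was that of Sfmbt2 from day 0 to 2, whose fall was larger in het by 0.52 on the log2 scale (SE 0.13, unadjusted p = 0.000893, adjusted p = 0.678). In the wt lines Sfmbt2 started at 304 to 379 CPM and in the het lines at 407 to 441 CPM, and on day 2 the order was turned, with 184 to 223 CPM in wt and 159 to 185 CPM in het.

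Lines of the same genotype were compared with each other over the 4 days to show how far single lines differ. Of 40 members 2 were called, against 2.23% of all genes (391 of 17543), and 10 passed an unadjusted p of 0.05. Of all 17543 genes, 2494 passed that unadjusted threshold. Sfmbt2 differed between lines (adjusted p = 0.0087): wt line 1 was below the other wt lines on 4 of 4 days, for example at 239 CPM against 375 and 529.7 CPM on day 2.5 and 356 CPM against 612 and 548 CPM on day 3. Its mean deviation from the genotype's day means was -0.36 on the log2 scale, against 0.14 and 0.22 for wt lines 2 and 3, and without wt line 1 Sfmbt2 was not called. Impact differed less (adjusted p = 0.019), with wt line 2 at a mean deviation of -0.17 and het line 1 at -0.18, each below its day mean on all 4 days. For Impact the day 0 levels were 211, 201 and 218 CPM in wt and 216, 241 and 263 CPM in het.

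Gab1, 1 of the 10 members at an unadjusted p under 0.05 between lines, lies on chromosome 8, and wt line 1 had an excess over that whole chromosome. The median log2 deviation of 799 genes of chromosome 8 was 0.227 in wt line 1 and between -0.0758 and 0.0339 in the other lines. Gab1 itself was above its day mean in wt line 1 on 4 of 4 days, by 0.14 on average, and its adjusted p between lines was 0.122. The part of the chromosome 8 difference in the Gab1 values was not tested. Gab1 was called in no comparison of genotypes.

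**Figure D5:**
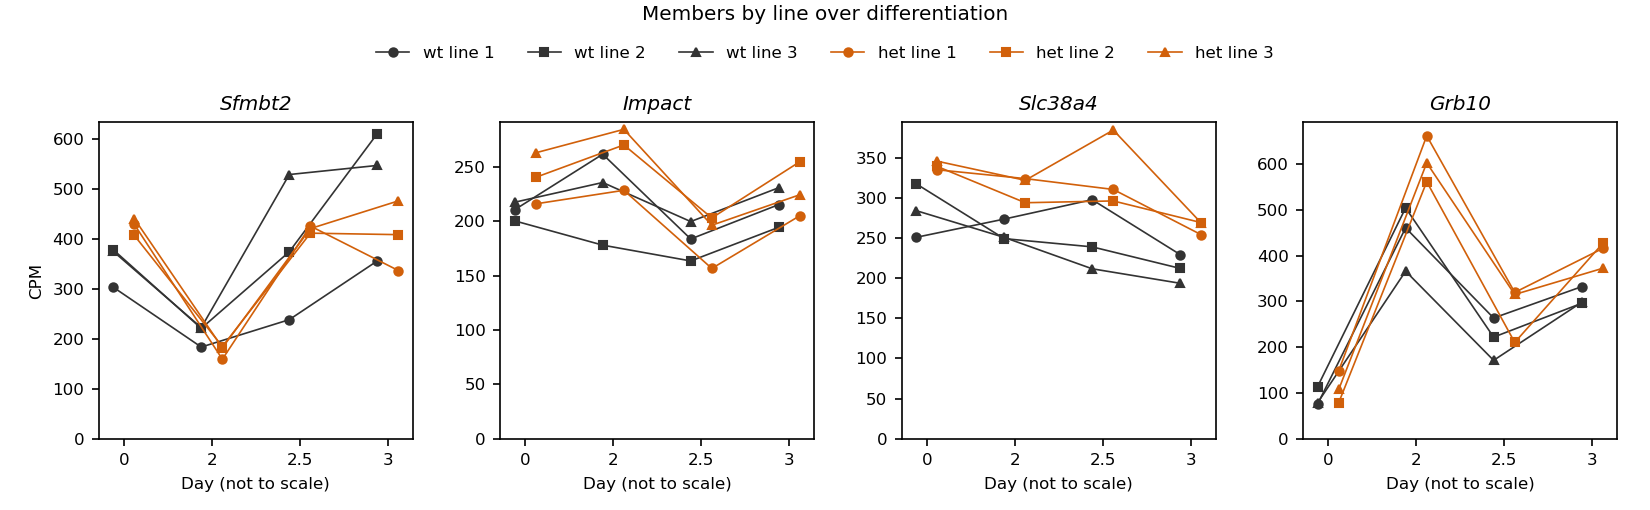
Level in CPM of Sfmbt2, Impact, Slc38a4 and Grb10 by day of differentiation (not to scale), with 1 line per cell line, black for wt and orange for het, and a marker shape for the line number. Sfmbt2 is lower in wt line 1 than in wt lines 2 and 3 on every day, and the Slc38a4 points of the het lines lie mostly above those of the wt lines.

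Most of a list of 17 genes linked to imprint control fell from day 0 to 2. The list was Zfp57, Zfp445, Trim28, Dppa3, Dnmt1, Uhrf1, Dnmt3a, Dnmt3b, Dnmt3l, Tet1, Tet2, Ctcf, Setdb1, Eed, Ezh2, Suz12 and Lrif1. It thus mixes genes that maintain imprints with genes of new DNA methylation, demethylation and Polycomb. Of 17 such genes, all tested, 2 were called up and 12 down from day 0 to 2 in wt and 3 up and 13 down in het, where 44.3% and 56.1% of all genes were called. At the next step 2 were called up and 7 down in wt and 2 up and 8 down in het (29.1% and 44.7% of all genes), and at the last 0 up and 4 down in each genotype (19.1% and 29.8%). Their summed level in wt went from 8232 to 8814 CPM on day 0 to between 2639 and 2855 CPM on day 3. In the comparison of het with wt, 0 of the 17 were called on any day. Among 26 further imprinted genes that are no members, 25 were found and 17 were tested from day 0 to 2. Of these 1 was called up and 7 down in wt and 1 up and 8 down in het, shares near the 44.3% and 56.1% of all genes. By edgeR 0 were called between the genotypes.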

How the data were processed

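Raw read counts per gene were deposited by the authors for 24 libraries. Per the labels and the methods, single-end poly(A) reads were trimmed with Trim Galore 0.4.4, mapped to GRCm38.p6 with HISAT2 2.0.5 and counted in SeqMonk, without separating alleles. Strandedness per library is not given in the sources used here. The deposited group-mean columns and the deposited log2 RPKM tables, which hold no members, were not used. Per-sample columns without a label numbered 0.

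Counts were fitted with edgeR 4.0.16 (R 4.3.3): filterByExpr, TMM scaling, quasi-likelihood F test, Benjamini-Hochberg adjustment over all genes, called at an adjusted p under 0.05. Each fit held only the groups compared. The SE is the absolute log2 fold change over the square root of F. Lines were compared with day as covariate, and genotypes also on counts summed over days. DESeq2 1.42.0, other scaling, no filter, a line block and leaving out lines were alternatives. The fits were also run on simulated counts with known changes, and that outcome is not given here. CPM are TMM-scaled counts per M counts of the library total (7.10 to 20.8 M), and floors cover counting error only. CPM per kb used exon length.

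Members and lists were chosen with earlier results of these data known. Values, by library or as ranges, are given for members called between genotypes or lines, for the 5 called members with the largest step in each direction (group mean of 50 counts or more), and for leading members of each cluster. Mirg, given outside this rule, was chosen after its values were seen. Line numbers mark the same cell line on different days, so steps are paired by design within a genotype; residuals of the same line correlated at -0.0424 to 0.178 between days. A wt and a het line of the same number are different lines.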

Additional observations from a re-analysis of the deposited data

How the results depend on the processing

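No log2 fold change reversed among 57 named steps and 15 genotype values (Smchd1 and Slc38a4 on each day and summed, and the summed Cdkn1c, Grb10, Peg10, Peg13 and Plagl1), whereas the members' median, het against wt, changed sign on days 2 and 3. The members' median of the step from day 2 to 2.5 changed sign too, in both genotypes. Of 513 alternative values for 57 named steps, 467 kept their side of the threshold and 46 lost the call. Of 166 for 15 genotype values, 141 kept it, 10 lost it and 15 gained it, and of 20 for the line values of Sfmbt2 and Impact, 16 kept it and 4 lost it. Without the filter on low counts, het against wt called 2 members on day 0 (Sfmbt2, Cdkn1c), 1 on day 2 (Grb10), 1 on day 2.5 (Kcnq1ot1), 2 on day 3 (Mest, Grb10) and 2 over the summed days (Grb10, Slc38a4), the interaction of day 2 against day 0 called 1 (Sfmbt2), and the comparison of lines called 6. Over all genes, het against wt then called 369 of 22267, 384 of 21707, 87 of 22847 and 274 of 22659 by day. It called 190 of 25577 over the summed days. With the filter these numbers were 0, 85, 0, 1 and 1. Without it the interaction called 58 of 23678 genes and the lines 1196 of 25577. With DESeq2 the calls of het against wt were 1 on day 0 (Cdkn1c), 1 on day 2 (Grb10), 1 on day 3 (Grb10) and 2 over the summed days (Grb10, Slc38a4), and the lines gave 4 (Sfmbt2, Gab1, Igf2r, Impact). Over all genes DESeq2 called 82, 233, 3 and 116 by day, 145 over the summed days and 996 of 17543 between lines. The causes of these changes were not tested. With 1 line left out, het against wt called 0 to 0 members on day 0, 0 to 1 on day 2, 0 to 0 on days 2.5 and 3 and 0 to 2 over the summed days. The steps in wt called 17 to 20, 3 to 8 and 0 to 12 members, the steps in het 23 to 27, 15 to 19 and 10 to 13, the interactions 0, and the lines 1 to 2. Over all genes, het against wt called 0 to 68, 0 to 211, 0 to 3 and 0 to 93 by day and 0 to 404 over the summed days. The steps called 4152 to 6363, 2249 to 3875 and 29 to 3098 genes in wt. In het they called 6877 to 7757, 4855 to 6327 and 2386 to 3032 genes. The interactions called 0 to 2 genes and the lines 22 to 450. These fits hold fewer libraries. With the line number as a replicate block, the step of day 3 against day 2.5 in wt called 19 members in place of 13 (4 in place of 2 down) and 4687 genes in place of 2923, and no other step's count of calls moved by over 1.5 times; in het against wt the numbers pair different lines, and the block called 0 members on each day. Among the tested members, total counts were lowest for Slc22a18, Nap1l5, Asb4, Zim1 and Airn, at 247 to 1053 over the 24 libraries.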
